A study of Mus musculus with 10 samples.

Results

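The genes described here encode the enzymes that cut and cross-link the extracellular matrix: secreted and membrane-anchored matrix metalloproteinases (MMPs), ADAM and ADAMTS proteases, meprins, the serine protease Htra1, the tissue inhibitors of metalloproteinases (TIMPs) and the lysyl oxidases. They were chosen by name, as 45 listed genes, from a table of 21010 genes. The table used here holds rows for 44 of the 45, and 40 had enough reads to be tested. The level of Mmp10 was not analysed here, and this gene enters only the promoter search below. RNA was sequenced from kidneys of KMS mice (5 libraries) and KM mice (5 libraries), all 20 weeks old. KMS mice carried Ksp-Cre, a MYC transgene behind a floxed stop cassette at the Rosa26 locus (R26StopFL) and floxed Setd2 alleles (Setd2 fl/fl). KM mice carried the same Ksp-Cre and MYC alleles without floxed Setd2. Both groups were on the C57BL/6 background. MYC overexpression was shared, and loss of Setd2, a histone H3 lysine methyltransferase, was the designed genetic difference between them. The Ksp (Cdh16) promoter drives Cre in renal tubule epithelium, so cells of other types were not its target. The labels give no sex. The source of the RNA is named in more than one way: the labels give tubular epithelial cells, the methods kidney tissue, and another account neoplastic masses (KMS) and cysts (KM). If masses and cysts were sampled, the kind of tissue differed along with the genotype, and their parts in any difference cannot be told apart.

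Matrix metalloproteinases are zinc enzymes made as inactive proenzymes and switched on by removal of the propeptide, in part by one another. TIMPs bind the active site and stop them. ADAM proteases sit in the cell membrane and shed growth factors, cytokines and receptors from it, ADAMTS proteases are secreted and cut proteoglycans such as aggrecan and versican or trim procollagens, and lysyl oxidases oxidise lysines of collagen and elastin so that the fibres cross-link. In the kidney these enzymes are known from the remodelling of basement membrane and interstitium in cystic disease, fibrosis and tumours, and meprins are abundant in the brush border of the mouse proximal tubule.

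A group of MMP genes lies close together on chromosome 9, and several of its members are known for promoters with a TATA box and a site for AP-1, the Fos and Jun transcription factor. RefSeq promoter sequences (build GRCm38.p6, from 250 bases before to 50 after an annotated start) matched 27 of the 45 genes by symbol, with 32 promoters in all. The letters searched, on both strands, were TGANTCA for AP-1, TATAAA for a TATA box and AGGAAG for PEA3, the ETS-type site often found beside AP-1 in MMP promoters. Matches to different patterns overlapped in none of the 32 promoters. AP-1 letters were in 6 of the 32 promoters (18.8%), against 7.81% of 32851 mouse promoters of the same length. TATA letters were in 7 (21.9%, against 13.6%) and PEA3 letters in 13 (40.6%, against 35.4%). Of the 6 chromosome 9 genes on the list (Mmp13, Mmp12, Mmp3, Mmp10, Mmp8 and Mmp7), 5 had AP-1 and TATA letters in the same promoter. Mmp8 had TATA letters without AP-1 letters, and these lay on the opposite strand across the annotated start. Among the other members only Adam19 had AP-1 letters and only Adamts1 had TATA letters, so the higher shares of these 2 patterns came from the chromosome 9 genes. A match describes the letters and is not evidence of a bound site.

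Sequences from 130 bases before to 20 after the start are printed for 4 of the chromosome 9 genes, to show AP-1 letters upstream of TATA letters. Loxl4, the gene of lowest p in the comparison of the groups, is printed as well. They run 5′ to 3′ on the strand of the gene, with matches to the 3 patterns in capitals. The regions are chr9:7445692-7445841 for Mmp3, chr9:7691960-7692109 for Mmp7, chr9:7347244-7347393 for the downstream of the annotated Mmp12 starts, chr9:7272384-7272533 for Mmp13, all on the plus strand, and chr19:42612787-42612936 for Loxl4 on the minus strand.
Mmp7: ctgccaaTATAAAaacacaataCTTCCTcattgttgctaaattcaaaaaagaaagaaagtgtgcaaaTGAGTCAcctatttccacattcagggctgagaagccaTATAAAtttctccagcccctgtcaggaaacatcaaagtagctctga
Mmp3: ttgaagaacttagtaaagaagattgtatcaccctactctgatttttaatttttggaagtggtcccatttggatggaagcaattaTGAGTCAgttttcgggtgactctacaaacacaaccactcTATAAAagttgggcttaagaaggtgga
Mmp12: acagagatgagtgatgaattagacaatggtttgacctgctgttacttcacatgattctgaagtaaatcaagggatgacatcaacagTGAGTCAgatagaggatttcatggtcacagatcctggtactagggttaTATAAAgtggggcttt
Mmp13: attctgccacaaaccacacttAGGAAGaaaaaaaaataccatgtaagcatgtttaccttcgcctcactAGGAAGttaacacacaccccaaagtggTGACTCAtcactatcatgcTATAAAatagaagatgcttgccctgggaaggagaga
Loxl4: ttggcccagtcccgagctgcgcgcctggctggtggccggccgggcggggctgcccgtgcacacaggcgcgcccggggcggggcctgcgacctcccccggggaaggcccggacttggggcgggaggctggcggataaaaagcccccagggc
In Mmp7, AP-1 letters stood 63 to 57 bases before the start and the nearer of the TATA matches 26 to 21 bases before it. In Mmp3 the AP-1 letters lay 46 to 40 bases and the TATA letters 7 to 2 bases before the annotated start. In Mmp13, PEA3 letters stood 62 to 57, AP-1 letters 35 to 29 and TATA letters 16 to 11 bases before it. In Mmp12 the AP-1 letters lay 44 to 38 bases before the annotated start, but the TATA letters lay 5 to 10 bases after it. Loxl4, in a promoter rich in G and C, held none of the 3 patterns.

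**Figure D1:**
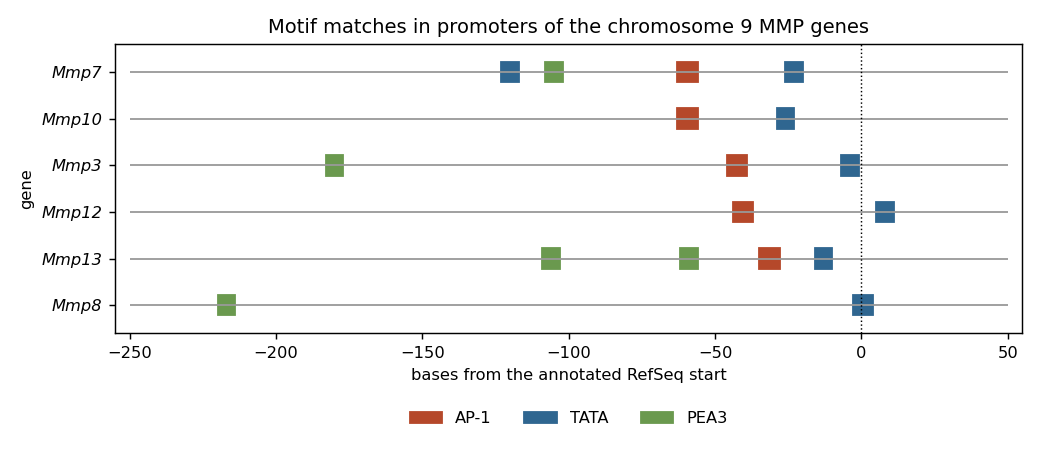
Matches to AP-1 (red), TATA (blue) and PEA3 (green) letters on either strand in RefSeq promoters of the 6 chromosome 9 MMP genes, on a horizontal axis of bases from the annotated start; each line is a promoter from 250 bases before to 50 after it. In 5 of the 6 genes an AP-1 match lies upstream of a TATA match, and Mmp8 has no AP-1 match.

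Libraries held 16925118 to 25029639 counts in KMS mice and 10873993 to 14564152 in KM mice. Levels are given as CPM, the count of a gene relative to the total of its library, scaled by the trimmed mean of M values (TMM). KMS replicate 5 stood apart, with a scaling factor of 0.642 and a mean Spearman correlation of 0.851 with its own group. KM replicates 1 and 2 were the closest pair (Spearman 0.993), and their spread was 2.39 times sampling noise. The next lowest spread was 9.17 times it (KM replicates 4 and 5), and the next highest Spearman correlation was 0.972 (KMS replicates 3 and 4). KM replicates 1 and 2 were thus far more alike than any other pair, and whether they come from separate mice was not tested. Setd2 itself had 89.0, 36.2, 71.1, 60.4 and 28.2 CPM in KMS replicates 1 to 5, against 67.9, 62.6, 73.3, 66.2 and 69.4 CPM in KM replicates 1 to 5. These whole-gene counts did not separate the groups, and since a floxed allele removes part of a gene and the sources used here do not name the deleted exons, they do not check the genotype.

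In the comparison of KMS with KM, 34 of the 40 tested genes had lower and 6 had higher estimates in KMS kidneys, and the median log2 fold change was -0.82. Across all 15728 tested genes 46% had negative estimates and the median was 0.056. No member passed a Benjamini-Hochberg adjusted p of 0.05 with a fold change above 1.5 in either direction in edgeR's quasi-likelihood test, where 0.102% of all tested genes did (12 genes lower in KMS, or 0.0763%, and 4 higher, or 0.0254%). The lowest adjusted p was 0.0568, for Loxl4, and the next was 0.135, for Adam10. At an unadjusted p under 0.05, 13 members were lower in KMS (32.5% of those tested, against 8.62% of all tested genes) and 1 was higher (against 10.8%). In 4 members (Loxl4, Adam10, Mmp7 and Adam8) all 5 KMS libraries lay below all 5 KM libraries, a pattern that 2.94% of all tested genes showed, and in none did they lie above, against 1.84% of all tested genes. DESeq2 called 5 members lower in KMS (Loxl4, Mmp12, Adam10, Adamts4 and Adamts9) and none higher, where it called 4.07% of genes with an adjusted p lower and 1.27% higher; it gave no adjusted p to Mmp7 or Adamts8. Without KMS replicate 5 the count at unadjusted p was 15 lower and 1 higher with a median of -0.73, and without KM replicate 5 it was 12 lower and 0 higher with a median of -0.66.

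**Figure D2:**
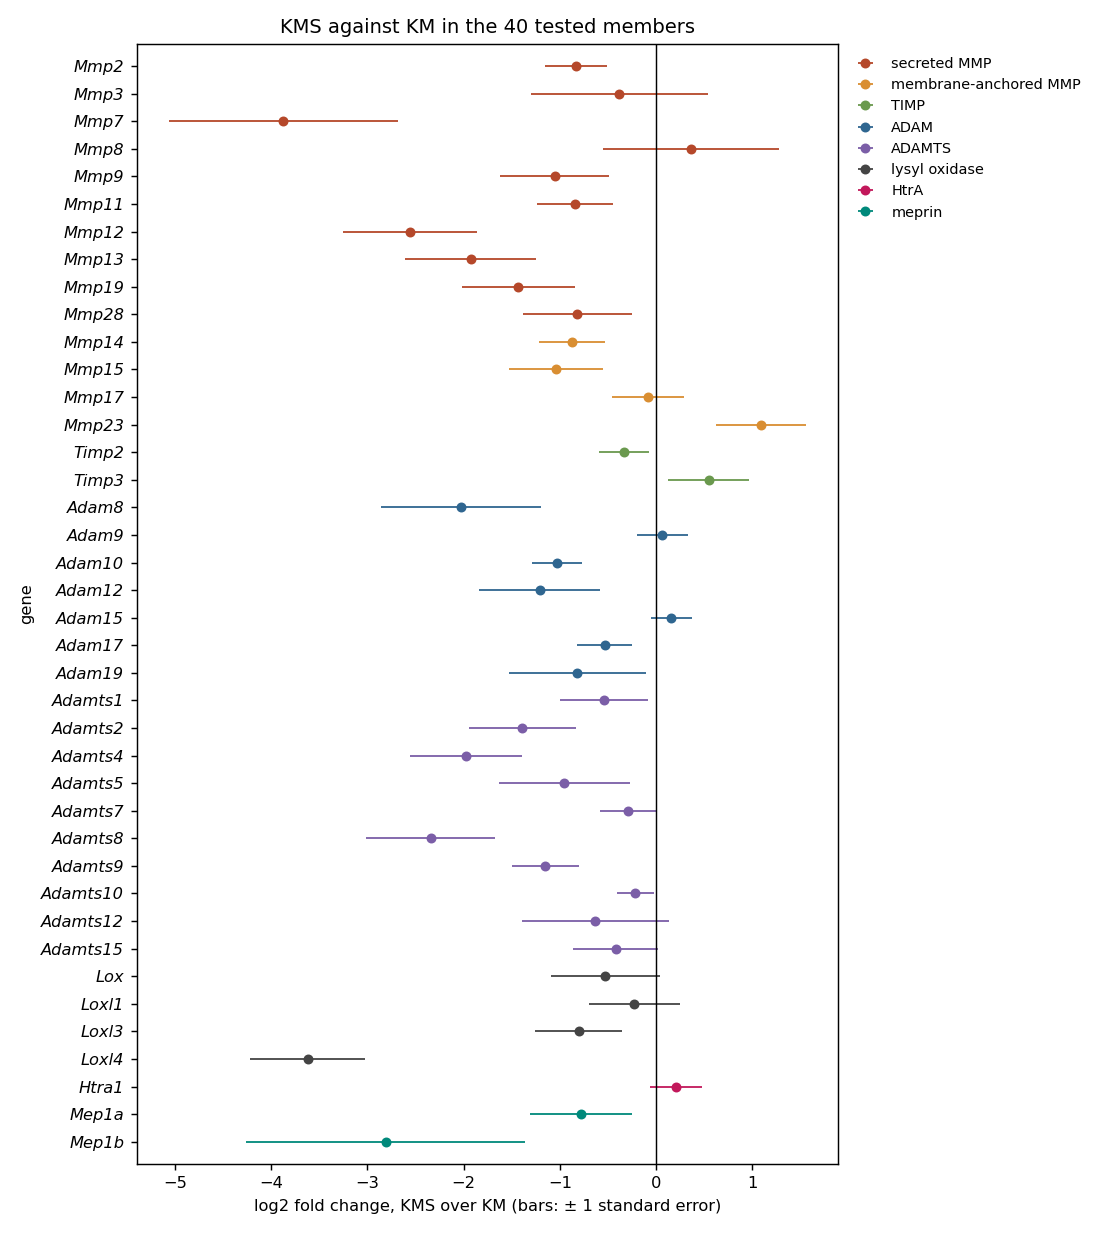
Log2 fold change of KMS over KM (points) with 1 standard error (bars) for the 40 tested genes, coloured by family, from edgeR on 5 KMS and 5 KM libraries. 34 points lie left of 0, and the lowest are Mmp7 (-3.87), Loxl4 (-3.62), Mep1b (-2.81) and Mmp12 (-2.56).

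Secreted MMPs were led by Mmp7, Mmp12 and Mmp13. Of 10 tested, 9 had negative estimates (against 46% of all tested genes), with a median of -0.95. Of these, 5 had an unadjusted p under 0.05 (against 8.62% of all tested genes). Mmp7, or matrilysin, which epithelial cells secrete and which cuts E-cadherin and basement membrane proteins, had 4.63, 7.79, 0.0591, 0.110 and 0.997 CPM in KMS replicates 1 to 5, against 10.7, 12.3, 14.2, 19.4 and 144 CPM in KM replicates 1 to 5. The groups did not overlap, KM replicate 5 held over 7 times the next value, and KMS replicates 3 and 4 were near 0. The log2 fold change was -3.87 (SE 1.19, edgeR adjusted p = 0.166), and it was -2.38 without KM replicate 5. Of the exonic bases of Mmp7, 11.5% lie opposite an antisense gene (AV064505), and the sources used here do not say whether counting used strand.

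Mmp12, the elastase of macrophages, had 0.842, 6.75, 1.12, 0.715 and 3.30 CPM in KMS replicates 1 to 5, against 12.6, 9.83, 4.91, 15.5 and 32.1 CPM in KM replicates 1 to 5. KMS replicate 2 lay above KM replicate 3, and the other KMS libraries lay below all KM libraries. Its log2 fold change was -2.56 (SE 0.70, edgeR adjusted p = 0.150; DESeq2 adjusted p = 0.00466), and -3.32 without KMS replicate 2. Macrophage markers had negative estimates in 7 of 7 (against 46% of all tested genes). They summed to 92.4 to 336 CPM in KMS and 224 to 731 CPM in KM libraries, with KM replicate 3 the lowest KM library, as it was for Mmp12. Among KMS libraries the orders differed: the marker sum was highest in replicate 3 (336 CPM), where Mmp12 had 1.12 CPM, and Mmp12 was highest in replicate 2, where the sum was 282 CPM. In these bulk samples fewer cells of a type and less RNA per cell cannot be told apart, and the part of macrophages in the Mmp12 values was not tested.

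Mmp13, the main interstitial collagenase of mice, had 0.514, 0.981, 1.89, 0.165 and 1.43 CPM in KMS replicates 1 to 5, against 1.86, 1.66, 1.72, 7.29 and 6.46 CPM in KM replicates 1 to 5. KM replicates 4 and 5 were high and the other KM libraries lay beside KMS replicate 3. Its log2 fold change was -1.93 (SE 0.68, edgeR adjusted p = 0.192). Over the 5 tested genes of the chromosome 9 group, 4 had negative estimates (against 46% of all tested genes), and the median was -1.93. Of these, 3 had an unadjusted p under 0.05 (against 8.62% of all tested genes). The estimates of the other tested neighbours were within their errors of 0, and their difference from Mmp7, Mmp12 and Mmp13 was not tested. Mmp3, stromelysin 1, had a log2 fold change of -0.38 (SE 0.92) with 0.0591 to 4.61 CPM in KMS and 0.435 to 3.65 CPM in KM libraries, and Mmp8, the collagenase of neutrophils, 0.36 (SE 0.91) with 0.623 to 4.67 CPM in KMS and 0.0592 to 7.5 CPM in KM libraries.

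The gelatinases cut denatured collagen and type IV collagen of basement membrane. Mmp2, gelatinase A, had 8.0, 10.4, 10.3, 4.95 and 4.92 CPM in KMS replicates 1 to 5, against 13.4, 21.2, 9.47, 12.3 and 12.6 CPM in KM replicates 1 to 5. All KMS libraries but 2 lay below all KM libraries, and the log2 fold change was -0.83 (SE 0.32, edgeR adjusted p = 0.209). Mmp9, gelatinase B, had 4.07, 1.39, 3.37, 4.12 and 2.68 CPM in KMS replicates 1 to 5, against 4.77, 4.76, 1.0, 8.66 and 13.3 CPM in KM replicates 1 to 5. The lowest of the 10 Mmp9 values was that of KM replicate 3, and the log2 fold change of -1.05 had an unadjusted p of 0.0892 and was -0.58 without KM replicate 5.

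Mmp11, stromelysin 3, is activated inside the cell by furin. It had 3.27, 7.04, 1.95, 2.58 and 5.11 CPM in KMS replicates 1 to 5, against 7.60, 10.3, 7.05, 6.26 and 4.64 CPM in KM replicates 1 to 5, with a log2 fold change of -0.84. Mmp19 had 0.842, 0.693, 1.59, 0.495 and 0.125 CPM in KMS replicates 1 to 5, against 1.94, 1.89, 0.829, 1.99 and 3.56 CPM in KM replicates 1 to 5, and its log2 fold change was -1.43 (SE 0.59, edgeR adjusted p = 0.226). KM replicates 4 and 5 lay within the KMS values for Mmp11, and KM replicate 3 did for Mmp19. Of the exonic bases of Mmp19, 22.3% lie opposite Tmem198b. Summed over the 10 secreted MMPs of the table, the level was 18.7 to 37.6 CPM in KMS libraries and 42.9 to 222 CPM in KM libraries, with 144 of the 222 CPM from Mmp7.

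Membrane-anchored MMPs did not share a direction: of 4 tested, 3 had negative estimates (against 46% of all tested genes), 1 of them with an unadjusted p under 0.05 (against 8.62%). Mmp14 (MT1-MMP), the collagenase of the cell surface that activates proMMP-2, had 22.1, 19.1, 17.2, 17.4 and 5.73 CPM in KMS replicates 1 to 5, against 23.8, 27.4, 20.2, 34.0 and 43.9 CPM in KM replicates 1 to 5. KMS replicate 1 alone lay above the lowest KM library, and KMS replicate 5 was the lowest of the 10. For Mmp14 the log2 fold change was -0.87 (SE 0.35, edgeR adjusted p = 0.216), and -0.62 without KMS replicate 5. Mmp15 (MT2-MMP) had 16.0, 8.83, 5.85, 3.24 and 9.28 CPM in KMS replicates 1 to 5, against 9.23, 12.3, 16.2, 11.8 and 39.5 CPM in KM replicates 1 to 5, with a log2 fold change of -1.04 that was -0.51 without KM replicate 5.

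Mmp23, a small MMP with an amino-terminal membrane anchor, had a higher estimate in KMS. It had 6.45, 32.3, 18.5, 17.1 and 26.8 CPM in KMS replicates 1 to 5, against 11.6, 9.83, 2.66, 14.0 and 9.43 CPM in KM replicates 1 to 5. All KMS libraries but replicate 1 lay above all KM libraries, and the log2 fold change was 1.09 (SE 0.47, unadjusted p = 0.0393, edgeR adjusted p = 0.238). Mmp23 was the single member with a higher estimate and an unadjusted p under 0.05.

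The tested TIMPs, Timp2 and Timp3, did not separate the groups, and Timp4 had too few reads. Timp3, the inhibitor that stays bound to the matrix and also blocks ADAM17 and aggrecanases, had 2312, 948, 2825, 1968 and 707 CPM in KMS replicates 1 to 5, against 842, 790.3, 1502, 1582 and 1273 CPM in KM replicates 1 to 5. The KMS libraries held both the highest and the lowest of the 10 values, and the log2 fold change was 0.55 (SE 0.42, edgeR adjusted p = 0.492). Timp2, which takes part in the activation of proMMP-2 by MT1-MMP, averaged 61.0 ± 19.1 CPM in KMS mice and 76.9 ± 18.6 CPM in KM mice (SD, n = 5 each). Its libraries ran over 38.4 to 84.6 CPM in KMS and 51.4 to 101 CPM in KM mice, with a log2 fold change of -0.33. Per kilobase of exon, Timp3 and Mep1a had the highest levels among the members: Timp3 had a mean of 215 RPKM in KMS and 147 RPKM in KM libraries, above Mep1a in KMS and below it in KM libraries. Of its exonic bases 21.3% lie opposite Syn3.

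**Figure D3:**
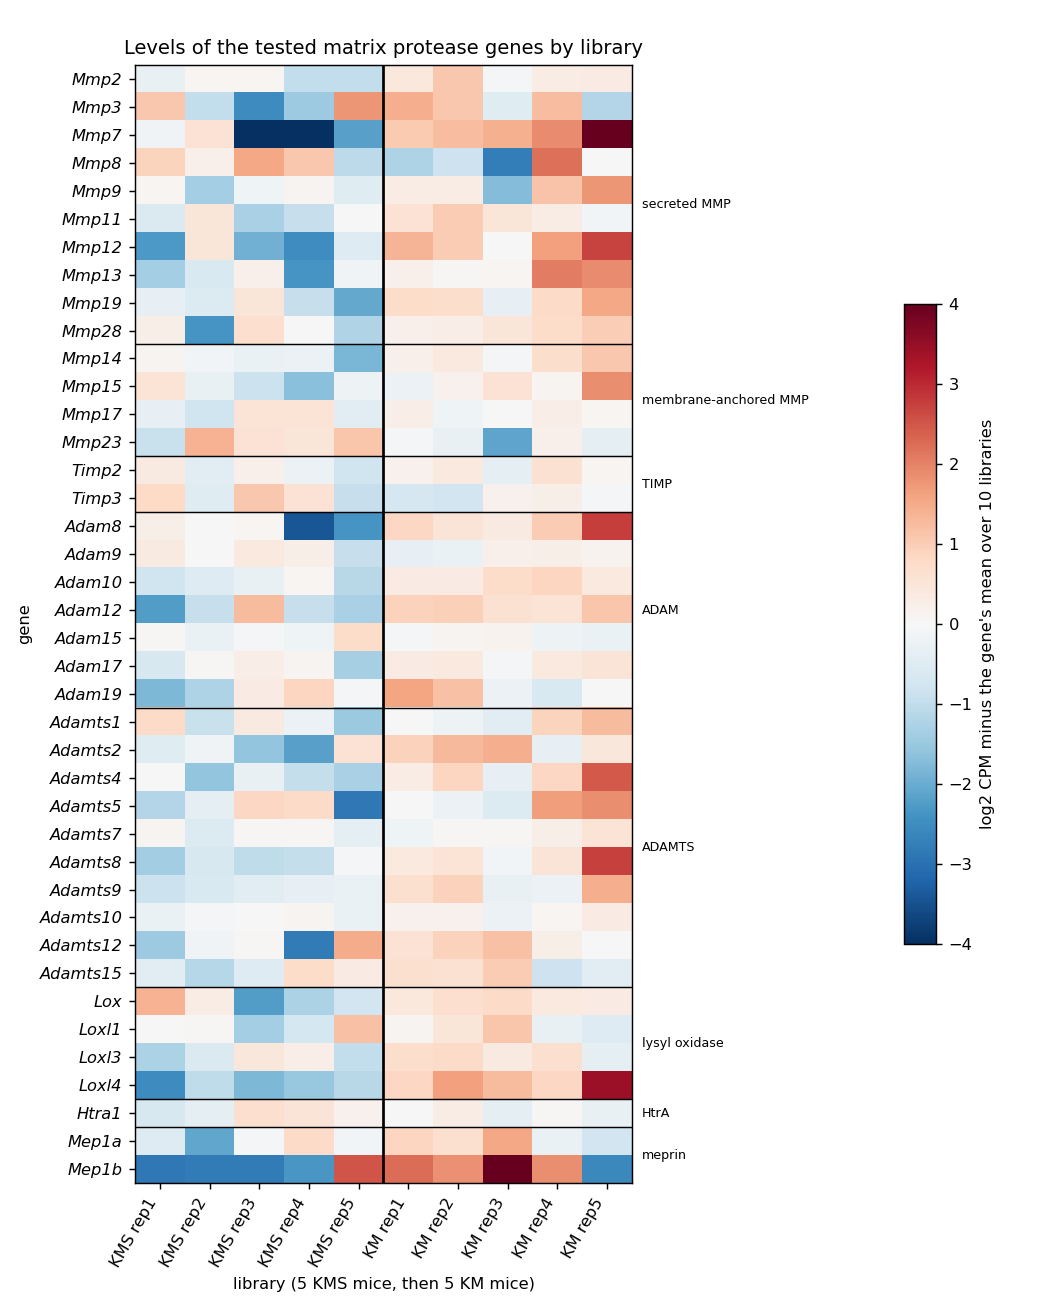
Log2 CPM of the 40 tested genes, each minus its mean over the 10 libraries, with the 5 KMS libraries left of the 5 KM libraries and families separated by lines; the colour scale stops at -4 and 4. The KM replicate 5 column holds the highest KM value in 18 of the 40 genes, while Timp3, Mmp8, Mmp23, Adam9, Adam15 and Htra1 have higher estimates in KMS.

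Of 7 ADAM proteases tested, 5 had negative estimates (against 46% of all tested genes) and 2 of these an unadjusted p under 0.05 (against 8.62%). Adam10, the sheddase of Notch receptors, E-cadherin and many other surface proteins, had 9.12, 11.0, 13, 16.7 and 7.23 CPM in KMS replicates 1 to 5, against 19.96, 20.1, 26.6, 29.1 and 20.8 CPM in KM replicates 1 to 5. The groups did not overlap, no library stood apart, and the log2 fold change was -1.03 (SE 0.26, edgeR adjusted p = 0.135; DESeq2 adjusted p = 0.0108). With each library left out in turn it ran over -1.20 to -0.87. No annotated gene overlaps the exons of Adam10.

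Adam8, which is known from leukocytes, had 2.81, 2.37, 2.48, 0.0550 and 0.312 CPM in KMS replicates 1 to 5, against 4.32, 3.48, 3.08, 4.95 and 17.1 CPM in KM replicates 1 to 5. The groups did not overlap, though KMS replicates 1 to 3 and KM replicate 3 were close. For Adam8 the log2 fold change was -2.03 (SE 0.83, edgeR adjusted p = 0.223), and -1.28 without KM replicate 5. Adam12, a protease of developing and regenerating mesenchyme, had 0.421, 1.33, 6.73, 1.32 and 0.997 CPM in KMS replicates 1 to 5, against 5.29, 5.37, 4.20, 3.99 and 6.10 CPM in KM replicates 1 to 5. KMS replicate 3 was the highest of the 10 while the other KMS libraries lay below all KM libraries, and the log2 fold change was -1.21 with it and -2.28 without it.

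Adam17, the enzyme that releases TNF and several EGF receptor ligands, had 27.2, 44, 51.5, 46.3 and 16.8 CPM in KMS replicates 1 to 5, against 53.7, 55.9, 41.2, 56.5 and 61.4 CPM in KM replicates 1 to 5. KM replicate 3 was the one KM library within the KMS values, and the log2 fold change was -0.53 (SE 0.29). Adam9, the most abundant ADAM per kilobase (mean 30.2 RPKM in KMS and 28.8 RPKM in KM libraries), averaged 124 ± 38.4 CPM in KMS mice and 119 ± 22.2 CPM in KM mice (SD, n = 5 each). Adam15 averaged 71.1 ± 21.8 CPM in KMS mice and 63.6 ± 7.63 CPM in KM mice (SD, n = 5 each), and its highest value, 109 CPM, was that of KMS replicate 5. The estimates of Adam9 (0.07, SE 0.26) and Adam15 (0.16, SE 0.21) were counted as higher in KMS but turned negative under upper-quartile scaling, so their direction depends on the processing. Of the exonic bases of Adam15, 20.6% lie opposite 4731419I09Rik.

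All 10 ADAMTS proteases had negative estimates (against 46% of all tested genes), from -2.34 to -0.21 with a median of -0.79. An unadjusted p under 0.05 was reached by 4 (against 8.62% of all tested genes). Adamts4, aggrecanase 1, had 2.43, 0.693, 1.95, 1.15 and 0.872 CPM in KMS replicates 1 to 5, against 3.05, 4.54, 1.89, 4.40 and 14.2 CPM in KM replicates 1 to 5. KM replicate 3 lay among the KMS libraries and KM replicate 5 far above the rest. For Adamts4 the log2 fold change was -1.97 (SE 0.59, edgeR adjusted p = 0.164; DESeq2 adjusted p = 0.0220), and -1.25 without KM replicate 5. Adamts8, a relative of the aggrecanases, had 0.234, 0.519, 0.354, 0.385 and 0.872 CPM in KMS replicates 1 to 5, against 1.27, 1.44, 0.829, 1.38 and 7.18 CPM in KM replicates 1 to 5. KMS replicate 5 and KM replicate 3 crossed by a small margin, KM replicate 5 again was far above the rest, and the log2 fold change of -2.34 (SE 0.67, edgeR adjusted p = 0.156) was -1.37 without it. Adamts15, its neighbour on chromosome 9 (30899155 to 30922452, with Adamts8 at 30942562 to 30963838), had a log2 fold change of -0.42 (SE 0.44).

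Adamts9, which cuts versican, had 7.01, 8.25, 9.27, 10.1 and 10.7 CPM in KMS replicates 1 to 5, against 20.2, 24.5, 10.2, 10.9 and 34.8 CPM in KM replicates 1 to 5. The KMS libraries were close together and KM replicates 3 and 4 lay beside their upper end. The log2 fold change was -1.15 (SE 0.35, edgeR adjusted p = 0.165; DESeq2 adjusted p = 0.0392). Adamts2, which removes the amino-terminal propeptide of procollagens I, II and III, had 3.23, 4.16, 1.42, 0.879 and 7.04 CPM in KMS replicates 1 to 5, against 8.94, 11.6, 13.1, 3.64 and 6.46 CPM in KM replicates 1 to 5. Its groups overlapped in KM replicates 4 and 5, and the log2 fold change was -1.39 (SE 0.55, edgeR adjusted p = 0.217). Genes on the other strand lie opposite 10.6% of the exonic bases of Adamts8 (Gm29724) and 9.18% of Adamts9 (A730049H05Rik).

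Adamts1 and Adamts5 are neighbours on chromosome 16, at 85793827 to 85803113 and 85858157 to 85901125. Adamts1, a versicanase, had 87.9, 27.7, 66.2, 43.7 and 18.2 CPM in KMS replicates 1 to 5, against 51.7, 44.8, 37.4, 95.9 and 125 CPM in KM replicates 1 to 5. Adamts5, the main aggrecanase of mouse cartilage, had 7.76, 13.7, 31.6, 29.8 and 2.24 CPM in KMS replicates 1 to 5, against 17.9, 14.7, 12.1, 55.9 and 64.5 CPM in KM replicates 1 to 5. Both were lowest in KMS replicate 5 and high in KM replicates 4 and 5, and neither separated the groups, with log2 fold changes of -0.54 (SE 0.46) for Adamts1 and -0.95 (SE 0.68) for Adamts5. Without KM replicate 5 these were -0.20 for Adamts1 and -0.52 for Adamts5.

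**Figure D4:**
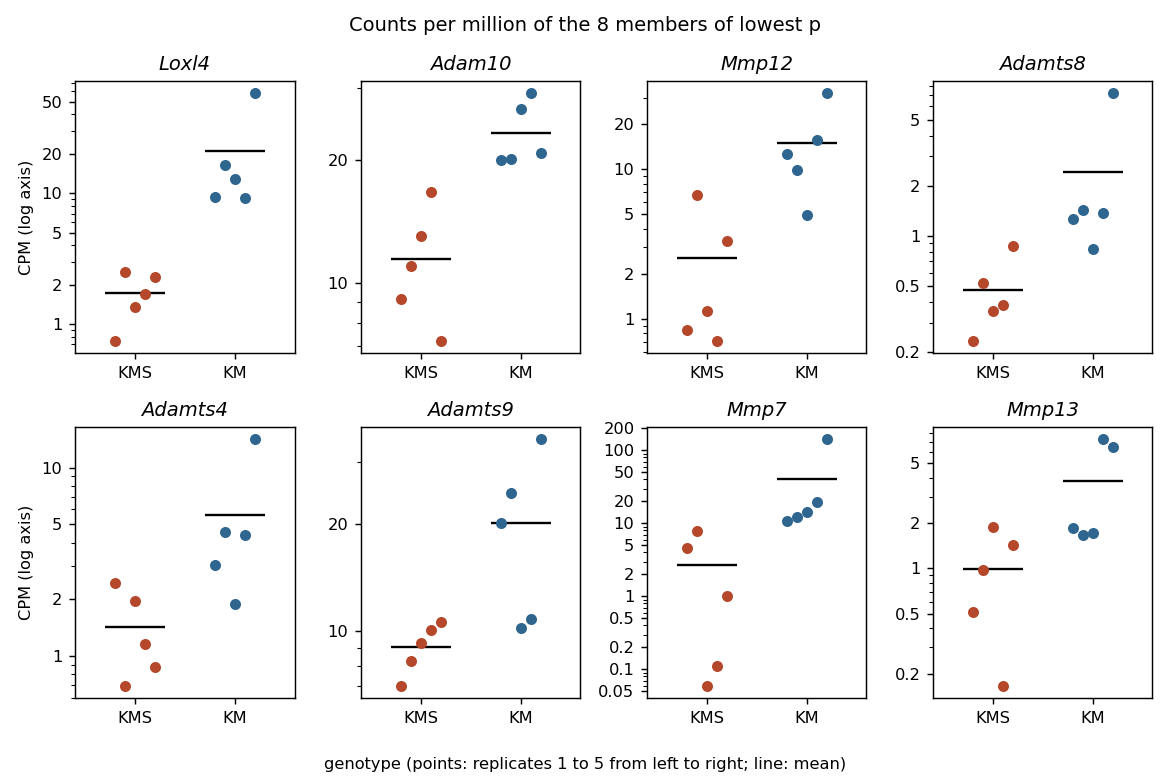
CPM in each library (points, replicates 1 to 5 from left to right) and group mean (line), on log axes that differ between panels, for the 8 members of lowest p. In Loxl4, Adam10 and Mmp7 all KMS points lie below all KM points, and KM replicate 5 is the highest KM point in Loxl4, Mmp12, Adamts8, Adamts4, Adamts9 and Mmp7.

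Among lysyl oxidases, Loxl4 stood apart from its relatives. Loxl4, a lysyl oxidase-like enzyme with scavenger receptor domains, lies on chromosome 19 (42592279 to 42612806) and had 0.748, 2.48, 1.36, 1.70 and 2.31 CPM in KMS replicates 1 to 5, against 9.38, 16.5, 12.8, 9.28 and 58.0 CPM in KM replicates 1 to 5. The lowest KM library held over 3 times the highest KMS library. Loxl4 had the lowest p among the members, with a log2 fold change of -3.62 (SE 0.60, unadjusted p = 6.5e-05) that missed the threshold in edgeR's quasi-likelihood test (adjusted p = 0.0568) and passed it in DESeq2 (adjusted p = 8.923e-08). In edgeR it passed without KM replicate 4 (adjusted p = 0.0470) and without KM replicate 5 (adjusted p = 0.0365, log2 fold change -2.81), and its adjusted p with each library left out in turn reached up to 0.118.

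Loxl1, which cross-links elastin, had 11.3, 11.6, 4.25, 6.87 and 25.4 CPM in KMS replicates 1 to 5, against 12.1, 15.7, 24.6, 9.08 and 7.76 CPM in KM replicates 1 to 5. The KMS range enclosed the KM range, and the log2 fold change of -0.23 (SE 0.47) was 0.09 without KM replicate 3. Lox, the founding member of the family, had 1.59 to 21.8 CPM in KMS and 10.5 to 14.3 CPM in KM libraries, with a log2 fold change of -0.53 (SE 0.57). Loxl3 had 0.795 to 3.07 CPM in KMS and 1.67 to 3.86 CPM in KM libraries, with a log2 fold change of -0.80 (SE 0.45). Summed over the 5 lysyl oxidases of the table, the level was 10.8 to 37.2 CPM in KMS libraries and 33.5 to 78.0 CPM in KM libraries.

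Htra1, a secreted serine protease that degrades fibronectin and proteoglycans, had 63.3, 76.6, 157, 143 and 112 CPM in KMS replicates 1 to 5, against 99.1, 121, 77.5, 101 and 79.8 CPM in KM replicates 1 to 5. KMS libraries spanned the KM range on both sides, and the log2 fold change was 0.21 (SE 0.27).

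The meprins varied widely from library to library. Mep1a, the alpha subunit, with a mean of 156 RPKM in KMS and 268 RPKM in KM libraries, had 417, 141, 571, 1011 and 557 CPM in KMS replicates 1 to 5, against 1096, 931, 1747, 499.8 and 348 CPM in KM replicates 1 to 5. The ranges overlapped and the log2 fold change was -0.78 (SE 0.53, edgeR adjusted p = 0.436). Mep1b, the beta subunit that anchors the enzyme in the membrane, had 0.327, 0.346, 0.354, 0.550 and 21.2 CPM in KMS replicates 1 to 5, against 17.2, 12.9, 115, 13.2 and 0.435 CPM in KM replicates 1 to 5. KMS replicate 5 lay within the KM values and KM replicate 5 within the KMS values, and KM replicate 3 was far above the other KM libraries. The log2 fold change of -2.81 (SE 1.45, edgeR adjusted p = 0.303) was -6.32 without KMS replicate 5 and -1.26 without KM replicate 3.

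Markers of the proximal tubule, the segment whose brush border holds meprins, summed to 1440, 1608, 9781, 7478 and 4615 CPM in KMS replicates 1 to 5, against 5110, 4568, 4487, 4081 and 3941 CPM in KM replicates 1 to 5. All 7 were detected, and 3 of 7 had negative estimates (against 46% of all tested genes). Among KMS libraries, Mep1a was higher in replicates 3, 4 and 5, which had the higher sums, than in replicates 1 and 2. Mep1b was not: KMS replicates 3 and 4, with the highest sums, had 0.354 and 0.550 CPM. The part of proximal tubule cells in the meprin values was not tested.

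**Figure D5:**
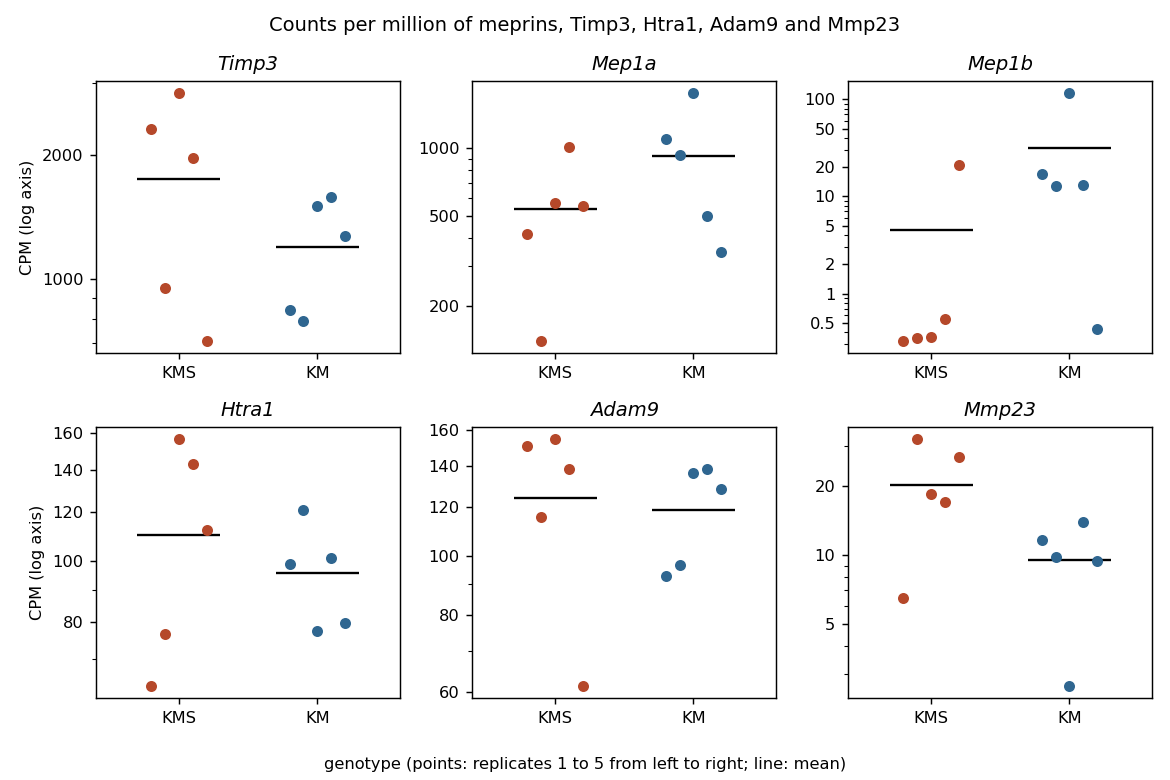
CPM in each library (points, replicates 1 to 5 from left to right) and group mean (line), on log axes that differ between panels, for Timp3, the meprins, Htra1, Adam9 and Mmp23. KMS replicate 5 and KM replicate 5 sit with the opposite group in Mep1b, and 4 of 5 KMS points lie above all KM points in Mmp23.

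The other 11 tested members had log2 fold changes of -0.82 to 0.36, 10 of them negative (against 46% of all tested genes), and their lowest adjusted p was 0.346. They include Adamts10, which is linked to fibrillin microfibrils and was the steadiest, with 14.8 to 19.2 CPM in KMS and 15.1 to 22.3 CPM in KM libraries. Adamts7 and Adamts12, which cut cartilage oligomeric matrix protein, had log2 fold changes of -0.29 (SE 0.29) and -0.63 (SE 0.76). Mmp17 (MT4-MMP) was at -0.09 (SE 0.37), Mmp28 (epilysin) at -0.82 (SE 0.57) and Adam19 at -0.82 (SE 0.71).

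The 4 members left out of the test had too few reads. Mmp16 (MT3-MMP) had 0, 0, 0, 0 and 1 counts in KMS replicates 1 to 5, against 1, 4, 2, 5 and 1 counts in KM replicates 1 to 5. Mmp24 (MT5-MMP) had at most 6 counts in a KMS library and 4 in a KM library, and Timp4 at most 11 and 3. Loxl2 had 1, 8, 9, 4 and 60 counts in KMS replicates 1 to 5, against 21, 21, 9, 10 and 1 counts in KM replicates 1 to 5, with KMS replicate 5 and KM replicate 5 each unlike their groups. Per kilobase of exon, 8 of the 40 tested members had a mean of 10 RPKM or more over the 10 libraries, 25 had 1 or more, and 15 had under 1.

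The direction was not carried by a single KMS library. KMS replicates 1 to 5 lay below all KM libraries in 21, 25, 15, 21 and 23 of the 40 tested members, against 30.1%, 23.6%, 21.9%, 23.0% and 38.5% of all tested genes. Among KM libraries, replicate 5 was the highest of its group in 18 of 40 (26% of all tested genes) and replicate 3 the lowest in 17 of 40 (30.1% of all tested genes). KM replicate 5 thus set many of the high KM values, and KM replicate 3 most often overlapped the KMS libraries.

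Genes of related function were counted in the same fit, from lists that were also drawn up with earlier results of these data known. The list of related proteases held relatives of the members and proteases of other families, such as cathepsins, Plau and Furin. Among 21 tested, 16 had negative estimates (76.2%, against 46% of all tested genes). An unadjusted p under 0.05 was reached by 3 lower in KMS (14.3%, against 8.62% of all tested genes) and 1 higher (against 10.8%). None of these proteases passed the adjusted threshold in edgeR's quasi-likelihood test, and DESeq2 called 3 lower (against 4.07% of genes with an adjusted p). Their lowest p belonged to Ctss (cathepsin S, of antigen-presenting cells), with 17.0 ± 7.87 CPM in KMS mice and 47.1 ± 12.9 CPM in KM mice (SD, n = 5 each; log2 fold change -1.47, edgeR adjusted p = 0.116). Adam28, an ADAM of lymphocytes, was at -3.23, Adam33 at -2.14 and Adamts3, a procollagen II N-proteinase, at 1.14.

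Of 17 tested regulators, 14 had negative estimates (82.4%, against 46% of all tested genes). An unadjusted p under 0.05 was reached by 2 of these (11.8% of those tested, against 8.62% of all tested genes). EdgeR called 0 and DESeq2 1, which was lower (against 4.07% of genes with an adjusted p). Papln (papilin, an ADAMTS-like matrix protein) had 4.35, 5.83, 5.61, 3.02 and 3.55 CPM in KMS replicates 1 to 5, against 8.12, 8.47, 11.8, 11.1 and 28.6 CPM in KM replicates 1 to 5, without overlap (log2 fold change -1.60, edgeR adjusted p = 0.131). Timp1, the TIMP that is induced in injured tissue, averaged 2.70 ± 3.33 CPM in KMS mice and 9.74 ± 4.76 CPM in KM mice (SD, n = 5 each; log2 fold change -1.85, edgeR adjusted p = 0.260). Thbs1 was at -0.87 and Pcolce2, an enhancer of procollagen C-proteinase, at -1.13.

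Matrix proteins that these enzymes cut or cross-link had lower estimates throughout. All 17 tested were negative (against 46% of all tested genes), with a median of -1.13. An unadjusted p under 0.05 was reached by 11 of them (64.7%, against 8.62% of all tested genes). None passed the adjusted threshold in edgeR's quasi-likelihood test, and DESeq2 called 8 lower, where it called 4.07% of all genes with an adjusted p lower. Col1a1 (type I collagen) had 3.04, 18.6, 3.96, 4.40 and 8.54 CPM in KMS replicates 1 to 5, against 62.1, 76.5, 73.7, 24.3 and 51.5 CPM in KM replicates 1 to 5, and its log2 fold change was -2.90 (SE 0.52, edgeR adjusted p = 0.0736). KM replicate 5, so high in Loxl4 and Mmp7, was not high in Col1a1. Col3a1 was at -2.56, Col5a1 at -1.67 and Fbn1 (fibrillin 1) at -1.15. Their sum over the list was 682 to 1048 CPM in KMS libraries and 1193 to 1599 CPM in KM libraries.

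Most markers of stromal and immune cells had lower estimates in KMS as well, where 46% of all tested genes had negative estimates. Fibroblast markers had negative estimates in 9 of 9, and 7 had an unadjusted p under 0.05 (77.8%, against 8.62% of all tested genes). Lum was called by edgeR, and 6 were called by DESeq2 (against 4.07% of genes with an adjusted p). The fibroblast markers summed to 129 to 193 CPM in KMS and 250.2 to 563 CPM in KM libraries, and 4 of the 9 are also on the list of matrix proteins. Beside the macrophage markers given with Mmp12, T and NK cell markers were negative in 5 of 5 tested (1.26 to 8.74 CPM in KMS and 17.7 to 34.9 CPM in KM libraries) and B and plasma cell markers in 5 of 5 (4.96 to 14.4 CPM in KMS and 8.46 to 75.9 CPM in KM libraries). Neutrophil markers were negative in 2 of 5 (18.5 to 74.3 CPM in KMS and 5.15 to 123 CPM in KM libraries), endothelial markers in 4 of 6 (94.3 to 1313 CPM in KMS and 231 to 1087 CPM in KM libraries) and smooth muscle and pericyte markers in 6 of 6 (65.1 to 184 CPM in KMS and 107 to 176 CPM in KM libraries). Distal nephron and collecting duct markers, at 3983 to 6733 CPM in KMS and 1538 to 9816 CPM in KM libraries, were negative in 3 of 7. No marker in the table was at 0 in all 10 libraries, though some, such as Ly6g, were at 0 in several of them. Each list summed above 0 in every library, so some tubule, stromal and immune RNA was counted in each. The lowest sum was 1.26 CPM, for T and NK cell markers in KMS replicate 1. The part of these cell types in the values of Adam8, Mmp2, Adamts2, Loxl4 and the other members was not tested.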

How the data were processed

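Poly(A) RNA of KMS and KM kidneys (5 libraries each) was sequenced by paired reads from a directional library kit. The authors mapped reads with HISAT2 to GRCm38 and counted them with HTSeq, and they deposited raw read counts per gene (counts, not normalised). The submitters' processing notes also name Trimmomatic 0.35 and cutadapt 1.9.1. The deposited table also holds the authors' own log2 fold change and p-value columns, which were not used.

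Counts were tested with edgeR 4.0.16 in R 4.3.3 (filterByExpr, TMM, quasi-likelihood fit without covariates, Benjamini-Hochberg over 15728 genes); a call needed a fold change above 1.5 in either direction at an adjusted p under 0.05. RUVSeq, named in the study without settings, was tried as an alternative, as were DESeq2 1.42.0, limma 3.58.1 and others. The fit was also run on simulated counts with planted changes larger than the members' median change, and no result here rests on that run. RPKM used GENCODE exon lengths and TMM-scaled totals. The series text gives 5 mice per genotype but also says that profiles were made in triplicate. The table holds 5 libraries per group, so p-values measure the spread between these libraries, which may be partly technical.

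The members and gene lists were chosen with earlier results of these data known. Values in every library are given for the 20 tested members of lowest p and for the 2 of highest mean RPKM in each family; from the lists of related genes, up to 4 of lowest p are named.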

Additional observations from a re-analysis of the deposited data

Results flagged for a closer look

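In 10 of the 58 sets of 5 values examined (29 members in 2 groups), the highest library lay unusually far from the others for a set of 5, by Dixon's test on CPM. For normally distributed values chance gives about 1 in 20. CPM without a log transform is skewed to high values, and all flags were on the high side, so the count of flags cannot be read against that rate. KM replicate 5 was that library in 6 of them, with 144 CPM of Mmp7, 39.5 CPM of Mmp15, 17.1 CPM of Adam8, 14.2 CPM of Adamts4, 7.18 CPM of Adamts8 and 58.0 CPM of Loxl4. KMS replicate 5 was high in Adam15 (109 CPM) and Mep1b (21.2 CPM), KMS replicate 3 in Adam12 (6.73 CPM), and KM replicate 3 in Mep1b (115 CPM). Without KM replicate 5 the log2 fold changes of KMS over KM stayed negative for those 6 genes, at -2.38 for Mmp7, -0.51 for Mmp15, -1.28 for Adam8, -1.25 for Adamts4, -1.37 for Adamts8 and -2.81 for Loxl4.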

How the results depend on the processing

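The count of members called was 0 in edgeR, and it was 1 with upper-quartile factors and without a filter on low counts, 4 with voom quality weights and with RUVg, 5 in DESeq2, 6 in the likelihood ratio test, 12 with RUVr and 0 to 1 with each library left out in turn; all of these calls were lower in KMS. Over all genes 16 were called, and the count was 25 with upper-quartile factors, 1072 in DESeq2, 33 in voom, 660 with quality weights, 602 in the likelihood ratio test, 507 with RUVg, 2234 with RUVr and 9 to 42 with a library left out (42 without KMS replicate 2; 9 or 10 without KM replicate 2 or KMS replicate 1 or 4). RUVr called 1217 genes higher and 1017 lower, and RUVg 218 higher and 289 lower, against 4 higher and 12 lower in edgeR. Upper-quartile factors moved the median of all genes to -0.09, against 0.056. Members with an unadjusted p under 0.05 numbered 14, 25 with quality weights and 11 to 19 otherwise, and the members' median stayed negative under all 23 alternatives. The alternative without a fold change threshold changes only the rule for a call. Its estimates, here and among the values below, therefore repeat the main fit by construction. Among 667 values of the 29 members given by library, 12 changed sign, in 4 genes: Adam9 (-0.06 with upper-quartile factors, -0.016 with RUVr, -0.108 with Y-linked level as covariate, -0.019 to 0.27 with a library left out, negative without KM replicate 1 or KMS replicate 1 or 3), Adam15 (-0.0047 with upper-quartile factors, -0.060 with quality weights, -0.021 without KMS replicate 5 to 0.24 without KMS replicate 2), Adamts5 (0.13 with quality weights) and Loxl1 (0.042 with the Y-linked covariate, -0.70 without KMS replicate 5 to 0.095 without KM replicate 3). The cause was not tested.

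Replicate numbers did not pair the libraries (correlations of same-numbered deviations -0.443 to 0.142). With the replicate number as a block, edgeR called 2 genes and 0 members, and 11 members had an unadjusted p under 0.05. Depth limits the lowest levels: the 0.0591 CPM of Mmp7 in KMS replicate 3 is 1 count.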
